A study of Mus musculus with 10 samples.

Results

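The peaks of trimethylated lysine 27 of histone H3 (H3K27me3) were compared between 2 stages of erythroid maturation in WT fetal liver (FL), the CD71+Ter119-/lo fraction, called pro-erythroblasts here, and the CD71+Ter119high fraction, called erythroblasts. All H3K27me3 peaks on the 19 autosomes were members: 4695 peaks in pro-erythroblasts and 4456 in erythroblasts, together 9151 of the 50907 peaks in the 6 lists of the series. A peak was shared when it overlapped a peak of the other stage by at least 1 base, and otherwise belonged to its stage alone. Peaks that a gene had within 5 kb of a transcription start site (TSS) made the gene kept, gained or left, according to whether both stages, erythroblasts alone or pro-erythroblasts alone had one.

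Both fractions were sorted from FL of E14.5 embryos described as WT or Pcl2+/+ (Pcl2 is another name of Mtf2), in a study that used C57Bl/6 gene-targeted ES cells. No transgene or treatment was named for them. About 500000 cells per sample were crosslinked and immunoprecipitated with an anti-H3K27me3 antibody or control IgG. One line of the series' own design text names H3K4me3, but its other lines and the sample labels name H3K27me3. For each stage 1 H3K27me3 library and 1 IgG library were analysed. Overlaps were also counted with 1 Mtf2 library of WT pro-erythroblasts and 1 H3K27me3 library of Mtf2-null pro-erythroblasts of E14.5 embryos. The Mtf2-null library had an IgG control of its own. The methods state replicates of 2 but not whether they were pooled. So no spread between replicates could be computed. The 95% Wilson intervals given with shares cover counting error only, since peaks of 1 library are not replicates.

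H3K27me3 is written by Polycomb repressive complex 2 (PRC2) and marks genes that are held silent. In mammalian cells it typically covers CpG islands, the CG-rich stretches at the promoters of developmental regulators. Cells of the erythroid lineage first gain the transferrin receptor CD71 and then the surface antigen Ter119, while they fill with hemoglobin and shut down the programs of other lineages. The sort markers could not be checked from these data, since a histone mark does not measure a protein. *Tfrc*, the gene of CD71, had no peak within 5 kb of a TSS in either stage, and neither had *Klf1*, *Hbb-b1* or *Hba-a1*. *Ly76*, the name of the Ter119 antigen, was not among the annotated symbols.

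The sequences around the strongest summits are examples from the peak classes and need not be typical of them. Each is the plus strand of NCBIM37 (the assembly of mm9), covers the 200 bases around the summit, holds no annotated exon and has CpG dinucleotides in capitals. The first 3 are the highest-scoring peak of each class, the shared one by the lower of its 2 scores and drawn at the erythroblast summit, and the last is the highest-scoring exon-free shared peak with a single-copy summit sequence, which was chosen after the values were seen.
pro-erythroblast only, chr17:29241187-29241386: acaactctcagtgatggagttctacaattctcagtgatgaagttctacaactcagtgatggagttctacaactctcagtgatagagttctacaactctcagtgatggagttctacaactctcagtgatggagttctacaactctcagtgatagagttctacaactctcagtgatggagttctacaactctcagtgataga
erythroblast only, chr11:82744644-82744843: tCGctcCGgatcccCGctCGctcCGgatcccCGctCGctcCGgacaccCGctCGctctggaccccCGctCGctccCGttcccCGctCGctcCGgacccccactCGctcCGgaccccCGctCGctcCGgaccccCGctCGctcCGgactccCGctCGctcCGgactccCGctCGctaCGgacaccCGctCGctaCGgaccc
shared, chr8:126082857-126083056: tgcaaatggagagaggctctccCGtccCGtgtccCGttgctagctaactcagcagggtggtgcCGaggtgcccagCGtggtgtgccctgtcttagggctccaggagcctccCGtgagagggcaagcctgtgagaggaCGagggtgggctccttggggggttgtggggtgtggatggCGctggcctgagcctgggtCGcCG
shared and single-copy, chr4:132648382-132648581: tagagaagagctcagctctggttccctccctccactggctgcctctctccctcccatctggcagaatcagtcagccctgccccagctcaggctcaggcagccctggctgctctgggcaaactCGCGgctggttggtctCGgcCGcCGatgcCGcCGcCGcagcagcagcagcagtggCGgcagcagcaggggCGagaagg

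The pro-erythroblast sequence lies 6135 bases downstream of the nearest TSS, that of *Cdkn1a*, in no annotated gene. It reads as a short unit repeated in tandem, without a CpG and with a GC content of 41%. The erythroblast sequence lies in an intron of *Unc45b*, which a lincRNA gene, *Gm12575*, overlaps on the opposite strand, 2283 bases downstream of the nearest TSS. It also reads as a tandem repeat, but a CG-rich one with 33 CpGs and 76.5% GC. The shared sequence is in an intron of the annotated gene *Gm20388* and holds 10 CpGs. The peaks of this pair overlapped by only 12 bases, with summits 2560 bases apart. The printed bases lie outside the pro-erythroblast peak of the pair, which starts at base 126083457. The single-copy shared sequence is intergenic, with *Ahdc1* as the nearest gene, and also holds 10 CpGs.

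The next set shows 1 sequence that recurred under many pro-erythroblast peaks. Each summit window was cut into words of 25 bases, the tag size in the file headers, and the exact matches of every word were counted over the whole genome on both strands. The word carried by the largest number of pro-erythroblast-only windows was in 103 of them, on 18 chromosomes, and had 1474 matches in the genome. All 103 of these peaks were also overlapped by an Mtf2 peak in pro-erythroblasts, and 85 were intergenic. The 4 highest-scoring peaks that carry it are shown with the word in capitals and 40 bases on either side, in the orientation of the first. Those on chromosomes 4 and 10 are from the plus strand, those on 15 and 9 from the minus strand, and none lies in an annotated gene.
chr4:45851828-45851932: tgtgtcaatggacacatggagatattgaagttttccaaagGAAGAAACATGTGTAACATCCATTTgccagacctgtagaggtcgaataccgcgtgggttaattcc
chr15:46737030-46737134: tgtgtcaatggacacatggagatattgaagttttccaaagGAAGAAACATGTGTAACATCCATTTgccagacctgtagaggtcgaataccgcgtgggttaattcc
chr10:108754319-108754423: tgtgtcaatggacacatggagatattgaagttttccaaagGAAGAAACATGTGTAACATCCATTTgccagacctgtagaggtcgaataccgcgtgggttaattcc
chr9:93544215-93544319: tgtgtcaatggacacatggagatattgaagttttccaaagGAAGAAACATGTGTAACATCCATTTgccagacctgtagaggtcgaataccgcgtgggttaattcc
All 105 bases were identical in these 4 peaks, which had scores of 157.86, 155.56, 150.15 and 145.66. The score is −10 log10 of the p of the peak caller.

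Both lists were about equally long but hardly overlapped. In pro-erythroblasts 288 of 4695 peaks (6.13%, 5.48 to 6.86) were shared, and in erythroblasts 281 of 4456 (6.31%, 5.63 to 7.06). Erythroblast peaks were longer, with a median of 1058 bases against 815, and covered 5.36 Mb against 4.44 Mb. Fold enrichment over IgG was similar, with a median of 8.19 in erythroblasts and 9.14 in pro-erythroblasts. Depth was not: the erythroblast library held 30054186 unique tags against 18945784, and its ratio of ChIP to IgG unique tags was 2.43 against 1.12. A deeper library reaches the peak caller's cutoff at a lower enrichment, and its part in the differences of number and length was not tested.

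Most peaks of the pro-erythroblast list lay over sequences that occur many times in the genome. The median word count of a summit window was at least 2 in 3813 of 4407 pro-erythroblast-only peaks (86.5%, 85.5 to 87.5), with a median of 448.5 copies per window and at least 1000 copies in 1291 peaks (29.3%). Among shared peaks it was at least 2 in 37 of 288 (12.8%, 9.47 to 17.2) on the pro-erythroblast side and 29 of 281 (10.3%, 7.28 to 14.4) on the erythroblast side. Among erythroblast-only peaks it was at least 2 in 561 of 4175 (13.4%). Windows placed every 100 kb along the autosomes gave 17.0% (16.6 to 17.5), so the erythroblast and shared peaks were near or below the level of the genome and the pro-erythroblast-only peaks far above it. Peaks whose window reached a median of 2 copies are called multi-copy from here on, and the rest single-copy. How reads that match several places were treated is not given in the sources used here, and the part of that treatment in the pro-erythroblast peaks was not tested.

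**Figure D1:**
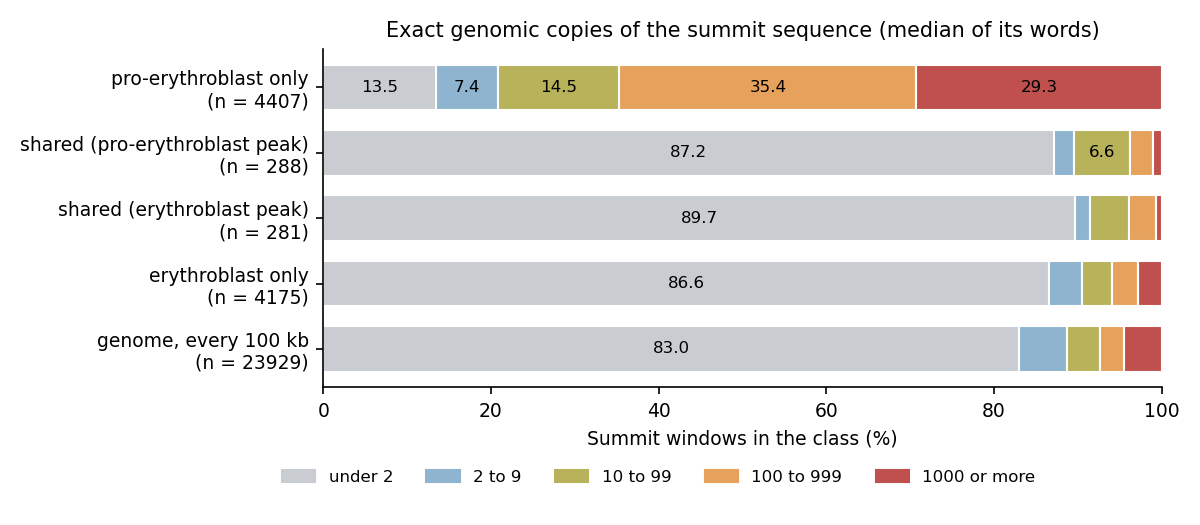
Share of summit windows (x axis, %) by the median number of exact genomic copies of their 25-base words (colours), for the peak classes and for windows every 100 kb along the autosomes. Pro-erythroblast-only peaks had a single-copy window in 13.5% of cases, and every other class and the genome in at least 83.0%.

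Windows of different pro-erythroblast-only peaks also matched each other. Of these peaks 3891 of 4407 (88.3%) shared at least 1 word with another peak of the class, and 3705 were linked in 1 group. Of erythroblast-only peaks 929 of 4175 (22.3%) did so. Among the shared peaks 26 of 288 on the pro-erythroblast side did so, and 14 of 281 on the erythroblast side.

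The share of peaks in common rose with the score in erythroblasts and showed no such rise in pro-erythroblasts. In erythroblasts the shared part rose with the score, from 47 of 1633 peaks (2.88%) at scores of 50 to 60 to 40 of 185 (21.6%, 16.3 to 28.1) at 300 and above. In pro-erythroblasts it was 6.59% at 50 to 60, 5.66% at 60 to 80, 6.60% at 80 to 100, 6 of 175 (3.43%, 1.58 to 7.28) at 100 to 150 and 0 of 25 at 150 to 300, where the upper limit was 13.3%. Multi-copy windows went the opposite way, from 77.1% to 97.7% of pro-erythroblast peaks and from 22.8% to 2.63% of erythroblast peaks between scores of 50 to 60 and 100 to 150, with 92.0% of the 25 pro-erythroblast peaks at 150 to 300. Among the 100 highest-scoring peaks of each list none overlapped one of the other, and among the 1000 highest 33 in pro-erythroblasts and 31 in erythroblasts did.

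Among single-copy peaks the picture of the pro-erythroblast list changed. Of its 845 single-copy peaks 251 overlapped an erythroblast peak (29.7%, 26.7 to 32.9), against 37 of 3850 multi-copy peaks (0.961%). That part rose with the score up to 100, from 153 of 594 (25.8%) at 50 to 60 to 17 of 33 (51.5%, 35.2 to 67.5) at 80 to 100. Above that few peaks were left, with 2 of 4 shared at 100 to 150 and 0 of 2 at 150 to 300. Of the 3866 single-copy erythroblast peaks 252 were shared (6.52%). The single-copy lists held 4.58 times as many peaks in erythroblasts as in pro-erythroblasts, where the full lists held 0.949 times as many. This split was chosen after the values were seen.

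**Figure D2:**
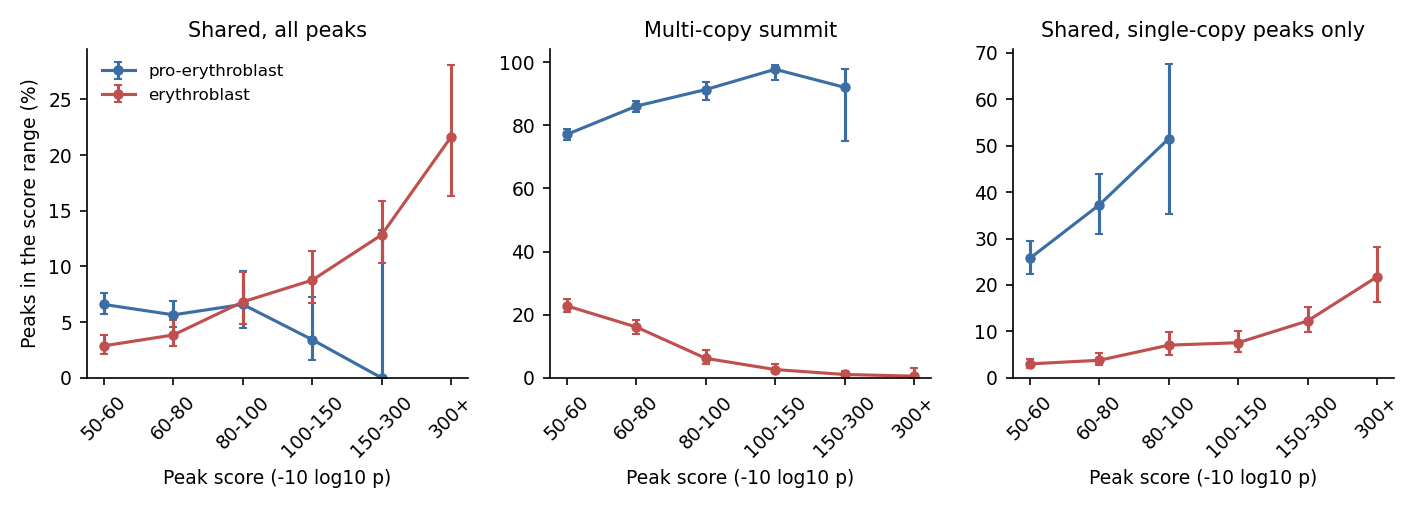
Percent of peaks (y axis) by range of peak score (x axis) for pro-erythroblasts (blue) and erythroblasts (red), with 95% Wilson intervals; ranges with fewer than 20 peaks are left out. Left, shared among all peaks, which reached 21.6% at the top of the erythroblast list and 0 in pro-erythroblasts at 150 to 300. Middle, multi-copy summit windows. Right, shared among single-copy peaks, which reached 51.5% in pro-erythroblasts.

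The highest-scoring pro-erythroblast peaks also had a high false discovery rate (FDR), an estimate that MACS makes by swapping the ChIP and control libraries. In the 25 peaks with scores of 150 to 300 it lay between 13.79% and 100%. The single peak above them was the 8077-base peak near *Cdkn1a*, with 480 tags, a score of 329.8, a 12.62-fold enrichment and an FDR of 0. After it came an intergenic peak at chr1:105102985-105105003 with 64 tags, a score of 221.31 and an FDR of 100%, and one at chr14:72200911-72203518 with 78 tags, a score of 205.54 and an FDR of 66.67%. Only 1 pro-erythroblast peak had an FDR of at most 5%, while 1304 of 4456 erythroblast peaks (29.3%) did. Over the whole lists, however, the median FDR was 14.71% in erythroblasts and 11.23% in pro-erythroblasts. At scores of 50 to 60 it was 29.42% in erythroblasts (21.65% to 33.9%) and 13.49% in pro-erythroblasts (10.79% to 15.06%). Several gained genes named below rest on erythroblast peaks of such scores, among them *Pcgf1* (FDR 33.11%), *Rab7* (30.26%) and *Klf3* (30.09%). The 3 strongest erythroblast-only peaks, in *Unc45b*, *March9* and *Clcf1*, had 517, 214 and 249 tags, scores of 3015.59, 1105.13 and 1046.9 and an FDR of 0.

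The classes lay at different places of the genome. Of pro-erythroblast-only summits 3080 of 4407 (69.9%) were intergenic and 90 (2.04%, 1.66 to 2.50) in proximal promoters, within 1 kb of a TSS. Of erythroblast-only summits 1841 of 4175 (44.1%, 42.6 to 45.6) were in proximal promoters, and of shared summits 134 of 288 (46.5%, 40.9 to 52.3) in pro-erythroblasts and 146 of 281 (52.0%, 46.1 to 57.7) in erythroblasts. The median distance to a TSS was 53.3 kb for pro-erythroblast-only peaks, 1.67 kb for erythroblast-only peaks, and 1.13 and 0.951 kb for shared peaks of the earlier and the later stage. More than 100 kb from any TSS lay 1639 pro-erythroblast-only peaks (37.2%) and 347 erythroblast-only peaks (8.31%).

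**Figure D3:**
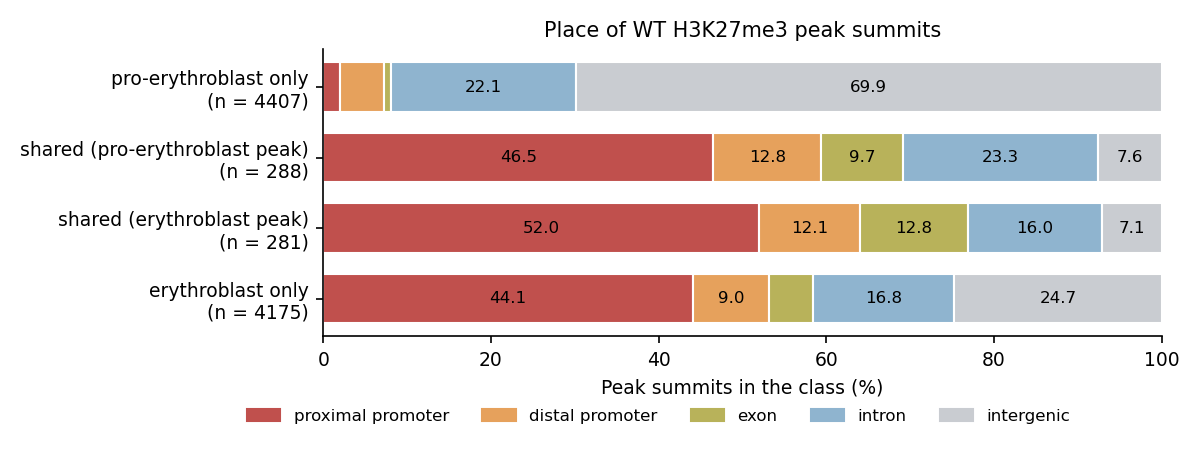
Place of the summit (colours) as a percent of the peaks of each class (x axis). Intergenic summits made up 69.9% of the pro-erythroblast-only class and 24.7% of the erythroblast-only class, and proximal promoters 46.5% and 52.0% of the shared peaks.

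The single-copy peaks of pro-erythroblasts fell between these classes. Of the 594 that were not shared, 68 (11.4%, 9.13 to 14.3) were in proximal promoters and 249 (41.9%) intergenic, at a median of 8.95 kb from a TSS. The 251 shared single-copy peaks were in proximal promoters in 131 cases (52.2%), and the 3614 single-copy erythroblast-only peaks in 1815 (50.2%). Of the 3813 multi-copy pro-erythroblast-only peaks 22 (0.577%) were in proximal promoters.

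CpG content also differed between the classes. A peak was called CpG island-like when the 1 kb around its summit had at least 50% GC and an observed-to-expected CpG ratio of at least 0.6. That held for 100 of 4407 pro-erythroblast-only peaks (2.27%, 1.87 to 2.75), for 1939 of 4175 erythroblast-only peaks (46.4%, 44.9 to 48.0) and for 176 of 281 shared peaks on the erythroblast side (62.6%, 56.8 to 68.1). Windows every 100 kb gave 0.606%. On the pro-erythroblast side of the shared peaks it held for 110 of 288 (38.2%). Median GC was 44.5% in pro-erythroblast-only and 56.4% in erythroblast-only peaks, against 41.7% over the genome.

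**Figure D4:**
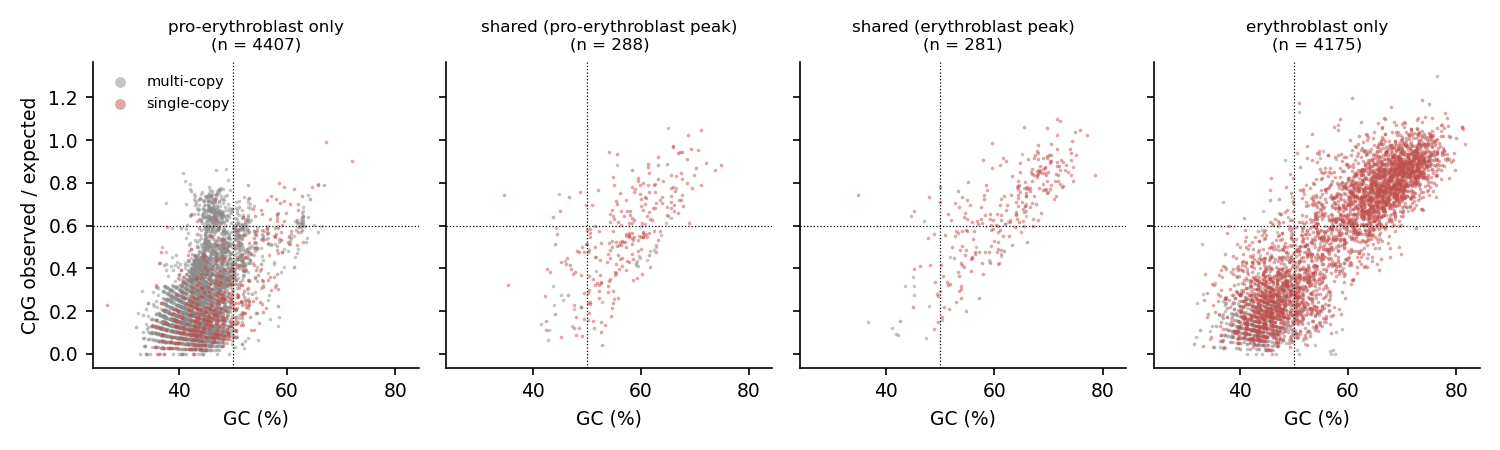
GC (x axis, %) against the CpG observed-to-expected ratio (y axis) in 1 kb around each summit, for the 4 peak groups, with multi-copy windows in grey, single-copy windows in red and dotted lines at 50% and 0.6. Of the peaks shown, 2.27% of the pro-erythroblast-only and 46.4% of the erythroblast-only class lie at or beyond both lines.

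Promoters alone did not remove the difference in CpG content. Within 1 kb of a TSS 16 of 90 pro-erythroblast-only peaks (17.8%, 11.2 to 26.9) were CpG island-like, against 1506 of 1841 erythroblast-only peaks (81.8%). In erythroblasts the CpG island-like part rose with the score from 18.2% at 50 to 60 to 94.1% at 300 and above, and by length it was 10.6% below 600 bases, 86.0% from 1500 to 2000 bases and 84.4% above 2 kb. In pro-erythroblasts it was 4.51% at scores of 50 to 60, 2.86% at 100 to 150 and 0 of 25 at 150 to 300.

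Mtf2 is a PRC2 accessory protein. Its peaks in WT pro-erythroblasts overlapped the pro-erythroblast H3K27me3 peaks mainly where the summit window was multi-copy. They overlapped 2688 of 4407 pro-erythroblast-only peaks (61.0%, 59.5 to 62.4) and 28 of 288 shared peaks (9.72%, 6.81 to 13.7). Of those 2688 peaks 2662 were multi-copy. Among multi-copy peaks the overlapped part was about the same in both classes. It was 2662 of 3813 pro-erythroblast-only peaks (69.8%) and 26 of 37 shared peaks (70.3%, 54.2 to 82.5). Among single-copy peaks 26 of 594 pro-erythroblast-only (4.38%) and 2 of 251 shared ones (0.797%) had an Mtf2 peak. Among erythroblast-only peaks 58 of 4175 (1.39%) had one. Both ChIP libraries of the stage were called against the same IgG library, and the Mtf2 library had unique tags for 34.6% of its tags against 80.7% in the H3K27me3 library. The part of that shared control in the overlap was not tested. Peaks of Mtf2-null pro-erythroblasts overlapped 5 of 288 shared peaks and 10 of 4407 pro-erythroblast-only peaks.

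At the shared sites the erythroblast peak was usually longer than the pro-erythroblast peak. The lists formed 305 overlapping pairs, with 245 distinct nearest genes. The erythroblast peak was the longer in 269 pairs, with a median length ratio of 2.21 (quartiles 1.42 and 3.14), and held the whole pro-erythroblast peak in 130. The summits of a pair lay a median of 608 bases apart, and within 500 bases in 131 pairs. Tags scaled to the number of unique tags in the library were higher in erythroblasts in 249 pairs, with a median ratio of 2.29. Tag density, which is tags per kb of peak after the same scaling to depth, did not follow: it was higher in erythroblasts in 148 pairs, with a median ratio of 0.982 (0.865 and 1.21), and fold enrichment was higher in 121 pairs, with a median ratio of 0.884. Each region was called separately in libraries of unequal depth and IgG, so its length and density depend partly on the cutoff reached in each library, and that part was not tested. In the 266 pairs with both windows single-copy the median length ratio was 2.29 and the median density ratio 1.02.

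The strongest shared pairs included a repeated sequence on chromosome 8 and some single-copy sites, not all of them close to a gene. On chromosome 8, within *Gm20388*, 25 pro-erythroblast peaks lay in 84.1 kb, 16 of them shared, and 14 erythroblast peaks in 86.5 kb, 11 of them shared. Only peaks with windows in a set range of copies were counted here, and erythroblast peaks only in or near the pro-erythroblast stretch. The narrow span of copies, between 48 and 51 in both lists, was thus partly fixed by this choice. All 25 and all 14 of the peaks so chosen overlapped a pro-erythroblast Mtf2 peak. The 3 highest-scoring pairs were in this locus (scores of 132.36 and 153.11 in pro-erythroblasts and erythroblasts), near *E130309D14Rik* (127 and 212.67) and near *Evi5* (117.1 and 272.56). The peaks of these pairs overlapped by 12, 414 and 824 bases, in that order. The best single-copy pair after *Evi5* was at *Isl2*, a LIM-homeobox gene of motor neurons. There the pro-erythroblast peak at chr9:55390339-55391842 held 39 tags and the erythroblast peak at chr9:55388443-55392301 held 178, and the first lay wholly within the second.

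Counted by genes with a peak near a TSS, where the peaks need not overlap, the stages had more in common than by all peaks. Of 21418 autosomal protein-coding genes 725 had a peak within 5 kb of a TSS in pro-erythroblasts and 2562 in erythroblasts. Kept were 372 genes (1.74% of all), gained 2190 (10.2%) and left 353 (1.65%). Thus 51.3% (47.7 to 54.9) of the genes with a peak in pro-erythroblasts had one in erythroblasts. In 247 of the 372 kept genes the peaks of the 2 stages overlapped, and in 125 they did not. In 337 of the 372 the erythroblast peak had the higher score, and in 350 it was the longer. Values given for a gene are those of its highest-scoring peak in each stage, so they can belong to different sites.

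The 3 gene classes differed in the sequence under their peaks. The best peak was CpG island-like in 1605 of 2190 gained genes (73.3%) and in 279 of 372 kept genes on the erythroblast side (75.0%). On the pro-erythroblast side it was so in 115 of 372 kept genes (30.9%) and 21 of 353 left genes (5.95%). All pro-erythroblast peaks were multi-copy in 223 of 353 left genes (63.2%, 58.0 to 68.0), against 35 of 372 kept genes (9.41%, 6.84 to 12.8). With single-copy peaks only, 336 genes were kept (1.57%), 2111 gained (9.86%) and 131 left (0.612%), and 71.9% of the pro-erythroblast genes were kept. Depth moved with the gain, since the erythroblast library was the deeper. Tags of the erythroblast-only peaks scaled to the pro-erythroblast depth had a median of 22.1, beside a median of 22 tags in pro-erythroblast-only peaks. They were at least 16, the lowest number in any pro-erythroblast peak, in 2964 of 4175 peaks (71.0%), and at least 32 in 1285 (30.8%). IgG depth did not enter this scaling, and the part of depth in the gained genes was not tested.

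The highest-scoring kept genes included several developmental transcription factors. *Fam171a2* had pro-erythroblast and erythroblast scores of 116.2 and 505.02, with a pro-erythroblast window of 3 copies. The other 9 had single-copy windows in both stages. *Isl2* had 114.31 and 232.79, *Igdcc3* 99.46 and 263.69, and the T-box repressor *Tbx2* 90.94 and 703.41. Scores were 90.58 and 176 at the homeobox gene *Hmx2*, 88.11 and 118.22 at *Epas1*, which encodes the hypoxia-inducible factor HIF-2α, and 87.06 and 286.64 at *Nxph4*, a neurexophilin. At *Espn*, an actin-bundling protein, they were 84.79 and 350.97, and at the zinc-finger repressor *Scrt1* 84.25 and 569.81. *S1pr5*, a sphingosine-1-phosphate receptor, was the only one of the 10 with the higher score in pro-erythroblasts (99.65 against 85.25). The peaks of the 2 stages did not overlap at *S1pr5*, *Fam171a2*, *Igdcc3* and *Nxph4*.

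The gained genes included the highest-scoring peak of either list. *Unc45b*, a myosin chaperone of muscle, had a peak of 517 tags and a 21.25-fold enrichment, in a window of 5 copies. The next 9 were single-copy, with scores from 621.9 to 1105.13 and fold enrichments from 12.47 to 21.34. They were *March9* (a ubiquitin ligase), *Clcf1* (a cytokine), *Pou3f3* and *Tlx2* (homeobox genes of the nervous system), *Zswim5*, *Zswim6*, *Dnmt3a* (a DNA methyltransferase), *Hic1* (a transcriptional repressor) and *Kcng3* (a potassium channel subunit). At *Dnmt3a* the peak of 2846 bases held 178 tags, with its summit at −141 bases from the TSS (negative values are upstream).

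The highest-scoring left genes lay beside multi-copy sequence in 9 of 10 cases. *Cdkn1a*, the cell cycle inhibitor p21, had its peak in the tandem repeat shown above, with 36 copies, 480 tags and no erythroblast peak. Windows of 769 to 1383.5 copies lay under the peaks of *Vps11*, *Olfr1155*, *Rbm12*, *Stx18*, *Ethe1*, *Spnb1* and *Cdk5rap1*, and 1 of 46 copies under that of *Thada*. *Spnb1* encodes the β-spectrin of the red cell membrane. Its peak of 37 tags lay inside the gene body, with its summit at −4069 bases from an annotated TSS within the gene. The single-copy one was *Mab21l2*, a developmental gene, with 38 tags, a score of 109.52 and the summit at −1528 bases from the TSS.

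Families of developmental transcription factors held many gained and kept genes. All 10 *Lhx* and *Lmx* LIM-homeobox genes had a peak in erythroblasts, and 7 were kept (*Lhx1*, *Lhx2*, *Lhx4*, *Lhx5*, *Lhx6*, *Lhx8* and *Lhx9*), each on a single-copy window. Fold enrichment of the best peak was higher in erythroblasts at *Lhx2* (14.55 against 8.17), *Lhx4*, *Lhx5* and *Lhx8*. It was lower at *Lhx9* (5.5 against 9.14), *Lhx1* and *Lhx6*. The best peaks of the stages need not be the same site. They did not overlap at *Lhx9* (summits at −2138 and −300 bases from a TSS in pro-erythroblasts and erythroblasts) or at *Lhx4* (1605 and −1444). Of 14 *Nkx* genes 4 were kept and 8 gained, of 6 *Irx* genes 2 and 3, of 18 *Sox* genes 5 and 6, of 40 *Fox* genes 5 and 18, and of 40 *Hox* genes 2 and 29. None of these 6 families held a left gene, beside 1.65% left over all genes. Of 6 *Dlx* homeobox genes 4 were gained and 1, *Dlx3*, was left, and the homeobox gene *Six6* was left too, both on single-copy windows. Of 16 *Tbx* genes 4 were kept, 5 gained and 1 (*Tbx5*) left. These shares stand against 1.74% kept, 10.2% gained and 1.65% left over all genes, and the lists were not tested against other genes.

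Signaling families also held gained genes, again to be read against 10.2% gained, 1.74% kept and 1.65% left over all genes. Of 19 Wnt ligands 11 were gained and 1, *Wnt10b*, kept, with 10.96-fold and 10.11-fold enrichment. The best *Wnt10b* peaks of the stages did not overlap, with summits 1896 and 811 bases from a TSS in pro-erythroblasts and erythroblasts. Of 14 Hedgehog pathway genes 8 were gained, among them the ligands *Shh* and *Ihh*, the receptor *Ptch1* and the factors *Gli1*, *Gli2* and *Gli3*, while *Dhh* was kept. Of 22 Notch pathway genes 5 were kept (the ligands *Jag1* and *Dll3* and the effectors *Hes1*, *Hes5* and *Hey1*), 9 gained and 1, *Hes2*, left. Of 25 Fgf ligands and receptors 4 were kept (*Fgf2*, *Fgf8*, *Fgf11* and *Fgf18*), 10 gained and 1, *Fgfr2*, left. The pro-erythroblast windows of *Dll3* and *Fgf2* had 19.5 and 443 copies.

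**Figure D5:**
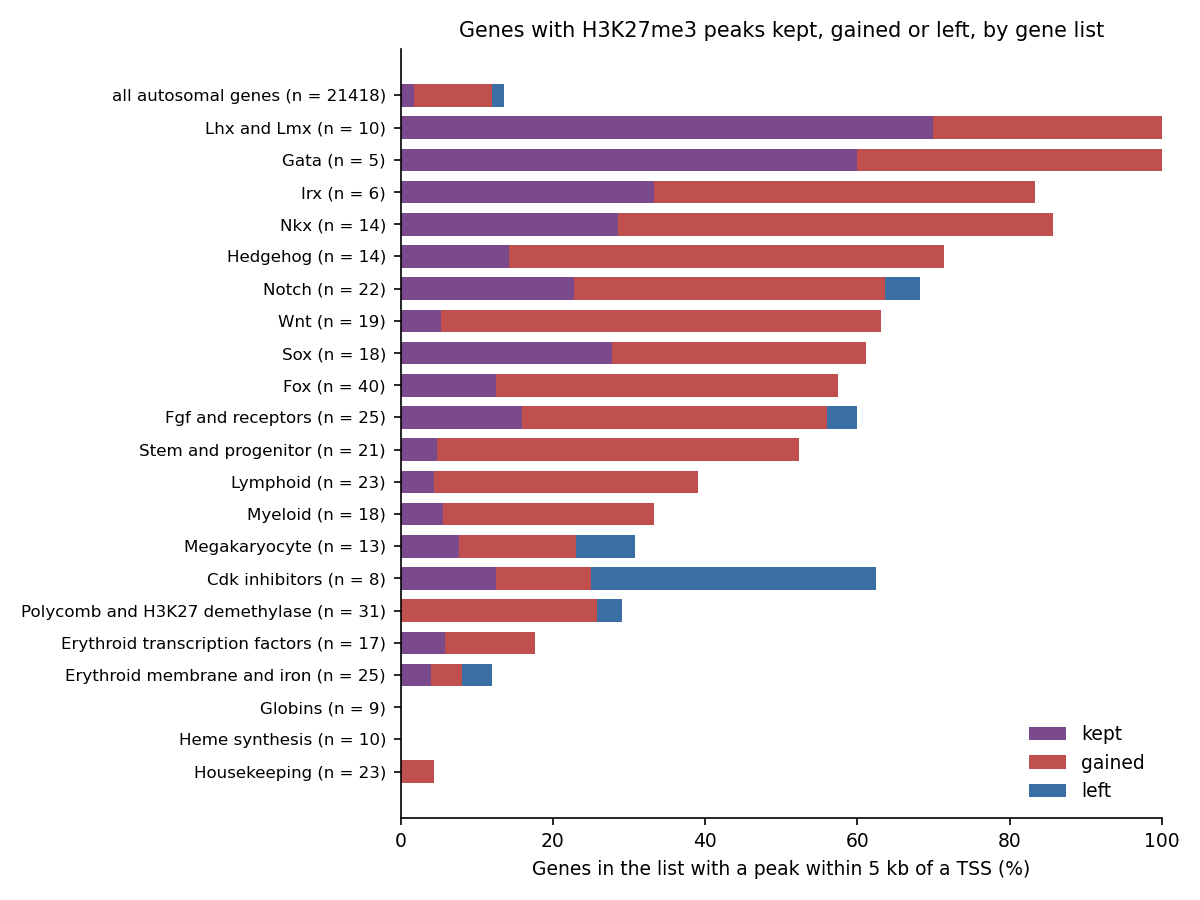
Percent of the genes of each list (x axis) that had a peak within 5 kb of a TSS in both stages (kept), in erythroblasts alone (gained) or in pro-erythroblasts alone (left), with all autosomal protein-coding genes on top. Kept genes were 7 of 10 in the Lhx and Lmx list, and the globin and heme synthesis lists held no gene with a peak.

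Among genes of stem and progenitor cells 10 of 21 were gained, beside 10.2% of all genes. *Bmi1*, a PRC1 subunit needed for stem cell self-renewal, had a peak of 161 tags, a score of 393.67 and a summit at −35 bases from the TSS. *Prdm16* had 116 tags and a score of 355.17, and *Hhex* 91 tags and 152.74. *Cxcr4*, *Mecom*, *Flt3*, *Hoxa9*, *Fli1*, *Meis1* and *Mycn* had scores between 53.52 and 83.64. *Gata2*, the progenitor factor that *Gata1* replaces during maturation, was kept, with 17 tags and a score of 55.05 in pro-erythroblasts and 114 tags and 133.02 in erythroblasts. All 5 autosomal *Gata* genes had a peak in erythroblasts, *Gata4* and *Gata6* also in pro-erythroblasts, and *Gata3* and *Gata5* in erythroblasts alone.

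In the lymphoid list 8 of 23 genes were gained and 1 kept, beside 10.2% gained and 1.74% kept over all genes, which also holds for the myeloid, macrophage and megakaryocyte counts. The B cell factors *Pax5* (93 tags, score 198.14) and *Ebf1* (63 tags, 129.82) and the T cell factors *Tcf7* (55 tags, 161.21) and *Bcl11b* (32 tags, 69.47) were gained, as were *Ikzf3* (186.77), *Id3* (114.84) and *Gata3* (74.25). The T cell factor *Tbx21* was kept, on a pro-erythroblast window of 174 copies. Of 18 myeloid genes 5 were gained: the granulocyte and monocyte factors *Cebpa* (79 tags, 234.34) and *Cebpb* (95 tags, 273.51), *Egr2* (164.79), *Klf4* (77.22) and *Id2* (72.05). *Egr1* was kept with similar scores, 85.45 and 81.41. Of 14 macrophage genes 1, *Maf*, was gained (137.85). Of 13 megakaryocyte genes *Fli1* and *Itgb3* were gained, *Gp1bb* was kept, and *Itga2b* was left, on the 3-copy peak it shares with *Fam171a2*.

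Most erythroid genes had no peak in either stage, as did 86.4% of all genes. None of 9 globin genes and none of 10 heme synthesis genes had one, which at these list sizes allows a share of up to 33.3% and 30.0%. Of 25 genes of the erythroid membrane and iron uptake 22 had none. *Ank1*, the ankyrin that ties spectrin to the membrane, was kept, with 16 tags (score 56.15) in pro-erythroblasts and 154 tags (235.95) in erythroblasts, with the erythroblast summit at −66 bases from a TSS. *Icam4*, a red cell adhesion molecule, was gained with 172 tags (331.26), its summit 6231 bases from the TSS, and *Spnb1* was left. Of 17 erythroid transcription factors 14 had no peak, *Sox6* was kept (50.34 and 89.69) and *Klf3* (53.11) and *Bcl11a* (60.41) were gained. Of 23 housekeeping genes 1, *Rab7*, was gained (52.9). Peaks say nothing of expression, which was not measured in these files.

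Markers of other FL cells also had peaks in erythroblasts, where 10.2% of all genes were gained and 1.74% kept. Of 16 hepatocyte genes *Prox1* and *Foxa1* were kept and *Foxa2*, *Hnf4a*, *Cebpa*, *Onecut1* and *Krt18* gained, the last on a window of 197 copies, while *Alb* and *Afp* had none. Of 12 endothelial genes *Sox17* and *Sox18* were kept and *Kdr* (148.13) and *Flt1* (68.43) gained, while *Cdh5* had none. A share of other cells in either fraction was not tested.

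Of 31 Polycomb and H3K27 demethylase genes 8 were gained, beside 10.2% of all genes, among them *Bmi1*, the PRC1 genes *Cbx7* (95 tags, score 139.98), *Pcgf2* (110.02), *Cbx2* (62.45), *Pcgf1* (50.61) and *Phc3* (53.32) and also *Kdm2b* (67.11), which binds CpG islands. *Cbx8* was left, with 16 tags and a score of 54.49 on a single-copy window. None was kept. Of 8 Cdk inhibitors, which stop the cell cycle, 3 were left, beside 1.65% of all genes, 1 was kept and 1 gained. *Cdkn1a* was left on its tandem repeat, and *Cdkn2b* (16 tags, 62.9) and *Cdkn3* (16 tags, 52.12) on single-copy windows with the lowest tag number of the list. *Cdkn2a* was kept with 20 and 30 tags, on a pro-erythroblast window of 8 copies, and *Cdkn1c* was gained with 143 tags (86.41).

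Neighboring peaks grouped differently in the 2 lists. Peaks at most 5 kb apart formed 141 runs of 3 or more in erythroblasts and 66 in pro-erythroblasts. The longest erythroblast runs by number were 9 peaks near *Hlx*, a homeobox gene, with none shared, and 8 near *Nr2e1* and *Ostm1*, with 2 shared, beside 8 in the chromosome 8 locus, all shared. In pro-erythroblasts the longest runs outside that locus were 5 peaks near *Lphn3* with none shared and several of 4, of which that near *Fgf8* had all 4 shared. Along the chromosomes erythroblast peaks ranged from 1.25 per Mb on chromosome 16 to 365 peaks in 121843856 bases on chromosome 11. Genes were about equally dense on chromosomes 11 and 7 (13.6 per Mb on each), and chromosome 7 had 1.92 erythroblast peaks per Mb. Pro-erythroblast peaks ranged from 1.63 per Mb on chromosome 19 to 2.18 on chromosome 17.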

How the data were processed

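H3K27me3 ChIP-seq peak lists of WT CD71+Ter119-/lo and CD71+Ter119high FL cells were used, with 1 H3K27me3 library and 1 IgG control library per stage. For overlaps the Mtf2 list of WT pro-erythroblasts and the H3K27me3 list of Mtf2-null pro-erythroblasts were used too, each from 1 library. Per the submitters' processing notes and the file headers, the authors used Bowtie2 2.2.3, the mm9 build and MACS 1.3.7, with each ChIP set against the IgG library of the same stage (p cutoff 1e-05, band width 300, model fold 32, tag size 25). The deposited tag counts are reads per peak, not normalized for depth. The deposited score is −10 log10 of the peak caller's p, the deposited fold enrichment is a ratio to local IgG background, and the deposited FDR is in percent. Headers call the alignments masked, without saying what was masked. Peaks on X and Y were left out.

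Overlaps, TSS, exons and gene bodies were computed on NCBIM37 with GENCODE M1 (protein-coding genes, by gene identifier, so that a symbol with several identifiers counts several times). Summits within 1 kb of a TSS were proximal promoters, those up to 5 kb upstream distal promoters, and the rest exon, intron or intergenic in that order. Gene lists were matched by symbol. Copies are exact matches of 25-base words over the 200 bases around a summit. Named genes were the 10 highest-scoring of each class (kept by the lower of the 2 best scores, at most 1 gene per peak, the one whose TSS is nearest), the 3 highest-scoring peaks of each peak class, and every member with a peak of the erythroid, blood lineage, Polycomb and Cdk inhibitor lists; others are named as examples chosen after their values were seen. A few members are not reported here. The single-copy split was chosen after the values were seen, and members, lists and rules were chosen with earlier results of these data known. With 1 library per stage no test was run. The overlap, TSS and copy steps were tested on simulated data. Scripts ran under Python 3.11.15 with matplotlib 3.10.9, scipy 1.17.1, pandas 2.3.3 and numpy 2.4.6. Between them the alternatives changed the score and FDR minimum, the chromosomes, the list size, the overlap rule, the TSS, gene and promoter windows, the summit, and the copy number of the summit sequence.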

Additional observations from a re-analysis of the deposited data

How the results depend on the processing

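With scores of at least 100, which left 201 pro-erythroblast and 1316 erythroblast peaks, the ratios of erythroblasts to pro-erythroblasts were 6.55 for peak number, 7.51 for covered length and 1.16 for median length. Shared were 2.99% of pro-erythroblast and 0.532% of erythroblast peaks, and 2 genes were kept, 1231 gained and 24 left. Proximal promoters held 1.49% and 71.8% of summits, and 2.49% and 85.1% of peaks were CpG island-like. With an FDR of at most 5%, which left 1 and 1304 peaks, the ratios of erythroblasts to pro-erythroblasts were 1304 for peak number, 296 for covered length and 0.21 for median length. Shared were 0% of pro-erythroblast and 0% of erythroblast peaks, and 0 genes were kept, 1221 gained and 1 left. Proximal promoters held 0% and 71.9% of summits, and 0% and 85.2% of peaks were CpG island-like. With single-copy summit windows, a choice made after the values were seen, which left 845 and 3866 peaks, the ratios of erythroblasts to pro-erythroblasts were 4.58 for peak number, 7.64 for covered length and 1.67 for median length. Shared were 29.6% of pro-erythroblast and 6.41% of erythroblast peaks, and 336 genes were kept, 2111 gained and 131 left. Proximal promoters held 23.6% and 50.7% of summits, and 16.6% and 54% of peaks were CpG island-like. So the ratio of peak numbers, below 1 in the full lists, was above 1 under these 3 settings, and the median length ratio fell below 1 with the FDR limit, where it rests on 1 peak. With X and Y the ratio of peak numbers was 0.899 and of covered length 1.14. An overlap of at least 50% of the shorter peak gave 4.69% and 4.65% shared, and a gap of at most 1 kb 7.92% and 9.2%. A TSS window of 1 kb gave 190 kept and 102 left genes, and a window over the whole gene 586 and 786. A promoter window of 2 kb held 8.52% of pro-erythroblast and 53.2% of erythroblast summits. Of 75 values under alternatives 41 moved, 4 turned direction and 30 did neither. Fewer peaks entered under the score, FDR and single-copy settings, and the cause of the changes was otherwise not tested. The equal list size was not applied to the ratio of peak numbers, which it fixes. In every setting with more than 1 pro-erythroblast peak the erythroblast list had the higher share of summits in proximal promoters and of CpG island-like peaks. The alternative on repeat-masked bases was not run, because the reference used here is not soft-masked. No paired analysis was possible because each stage has 1 library. Peak numbers and lengths are limited by the depth of both the ChIP and the IgG libraries, and nothing here separates stage from library.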

Other observations

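The sex chromosomes, which were outside the comparison, differed more between the lists than the autosomes did. In pro-erythroblasts 285 peaks lay on X and 12 on Y, together 5.95% of 4992 peaks. In erythroblasts 34 lay on X and none on Y, 0.757% of 4490. Per Mb of X these were 1.71 and 0.204 peaks. Pro-erythroblast peaks were about as dense on X as on the autosomes, where they ranged from 1.63 to 2.18 per Mb, and erythroblast peaks were sparser there than on any autosome.

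Olfactory receptor genes had few peaks in either stage. Of 1081 genes 13 were left (1.20%, beside 1.65% of all genes), 4 gained (0.370%, beside 10.2%) and none kept (beside 1.74%), and with single-copy peaks 1 was left and 2 were gained. Of 79 ribosomal protein genes 5 were gained. They included Rpl11, Rpl6 and Rps27a, whose windows had 268.5, 4 and 642 copies.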
